A study of Homo sapiens with 12 samples.

Results

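Bidirectional promoters are stretches of DNA from which a pair of genes is transcribed outward, 1 from each strand, with a single nucleosome-depleted region between the transcription start sites (TSSs). They are typically rich in CpG and poor in TATA boxes, and many of them serve housekeeping, DNA repair and histone genes. H2A.Z is a histone variant that replaces H2A in the nucleosomes flanking active promoters, and its acetylated form, H2A.Zac, is a mark of transcribed promoters. The human TIP60 complex, in which EP400 is the motor and scaffold subunit, both deposits H2A.Z and acetylates it, and TRRAP is the subunit through which transcription factors are known to recruit the complex.

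A bidirectional promoter was defined from annotation alone, as a minus-strand and a plus-strand protein-coding gene whose TSSs lie 1 to 1000 bp apart with the minus-strand TSS at the lower coordinate. Among 20033 protein-coding genes of GENCODE release 44 on hg38, 887 such pairs were found. Pairs that share a gene were joined, which gave 824 promoters with 1710 genes, and 60 of the promoters hold more than 1 pair. The median distance between the TSSs was 129.5 bp, with an interquartile range of 69 to 240.25 bp and a range of 1 to 995 bp. Each promoter window ran from 1000 bp outside the minus-strand TSS to 1000 bp outside the plus-strand TSS. Of the 158028 regions listed for both marks, 3382 overlapped these windows, and no region overlapped more than 1 of them. The other 18323 protein-coding TSSs, each with 1000 bp to either side, served for comparison and took 37786 regions. Of those TSSs, 1419 have a long noncoding RNA (lncRNA) starting 1 to 1000 bp upstream on the opposite strand, and 16904 have none. Whether both genes of a pair are transcribed in these cells was not analysed here.

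The data are ChIP-seq libraries from K562, a human chronic myeloid leukemia line. In both lines compared, endogenous EP400 was homozygously tagged with a degron and removed by treatment with 500 nM dTAGV-1 for 24 h, while a transgene at the AAVS1 safe harbor locus supplied EP400. The WT line expressed full-length EP400, and the ΔTRRAP line expressed EP400 without the SANT and HD domains, the segment that holds TRRAP. Each line is 1 clone, so a difference between clones and a difference between the EP400 forms cannot be told apart. Input, H2A.Z and H2A.Zac were each sequenced from 2 biological replicates of either line, 12 libraries in all.

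The authors pooled the replicates and sorted regions into 3 classes per mark with MACS2 bdgdiff. Regions higher in WT are called lost below, regions higher in ΔTRRAP are called gained, and the remainder are unchanged. Each region carries 1 value, the log10 likelihood ratio between the lines, which is at least 3 in lost and gained regions. Since deeper regions reach higher ratios for the same difference, it is no measure of fold change. Since no value per replicate and no depth is given, no difference below has a replicate check or a test. The intervals printed beside shares are Wilson 95% confidence intervals. They include counting error alone and treat neighboring regions as independent, and for the main shares the range over values that each omit 1 chromosome is added.

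The stretches between the TSSs of 4 promoters are printed here, because they lie at the centers of pairs with some of the highest likelihood ratios in both marks, in either direction, among those with at most 300 bp between the TSSs. They are the plus strand of hg38, 5′ to 3′, from the base after the minus-strand TSS to the base before the plus-strand TSS. Capitals mark matches, on either strand, to the motifs searched. These were the CCAAT box, the GC box (letters GGGCGG), the ETS motif (letters CCGGAAG), the E-box (letters CACGTG), the YY1 motif (letters ATGGCGGC), the TATA box (letters TATAAA) and the palindromic NRF1 motif, which is the one in capitals at NUDCD2/HMMR. The first 2 promoters were gained and the last 2 lost.
NUDCD2/HMMR, chr5:163460103-163460202: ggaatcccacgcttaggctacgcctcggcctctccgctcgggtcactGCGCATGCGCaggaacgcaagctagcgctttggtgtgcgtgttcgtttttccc
CLIC1/MSH5-SAPCD1, chr6:31739764-31740019: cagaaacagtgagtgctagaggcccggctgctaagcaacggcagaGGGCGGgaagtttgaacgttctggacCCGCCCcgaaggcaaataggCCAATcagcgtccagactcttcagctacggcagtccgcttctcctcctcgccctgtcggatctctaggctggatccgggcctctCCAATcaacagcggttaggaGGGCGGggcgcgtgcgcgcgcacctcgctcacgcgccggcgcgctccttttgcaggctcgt
UIMC1/ZNF346, chr5:177022634-177022695: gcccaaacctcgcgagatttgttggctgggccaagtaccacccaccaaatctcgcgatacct
ZDHHC19/SLC51A, chr3:196211438-196211486: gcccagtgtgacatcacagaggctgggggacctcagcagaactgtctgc
The GC content of these spans was 62% at NUDCD2/HMMR, 64.1% at CLIC1/MSH5-SAPCD1, 56.5% at UIMC1/ZNF346 and 61.2% at ZDHHC19/SLC51A. These 4 are examples, not all spans that the rule takes, and they do not show how often a motif occurs at gained or lost promoters. The span of the lost promoter SOX18/TCEA2, which is not printed, held 7 matches, to the GC box and the CCAAT box. Its GC content was 78.6%, so lost spans are not in general free of these motifs. In the windows from 250 bp before to 50 bp after the TSSs, the GC box was found at 409 of 511 promoters with gained and 56 of 70 with lost H2A.Zac, and CCAAT at 260 and 34.

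Nearly all bidirectional promoters carried both marks. An H2A.Z region lay in 751 of 824 windows (91.1%, interval 89.0 to 92.9%) and an H2A.Zac region in 763 (92.6%, 90.6 to 94.2%), against 57.2% and 59.4% of the other coding TSSs. Coding TSSs with a divergent lncRNA lay between them, at 80.3% and 81.5%. Both marks were found at 735 promoters, H2A.Zac alone at 28, H2A.Z alone at 16, and neither at 45. An occupied window held a median of 2 H2A.Z regions (up to 5) and 3 H2A.Zac regions (up to 7), in which parts of 1 peak can be listed as separate regions. Regions covered a median of 62.6% of the window for H2A.Z and 85.2% for H2A.Zac, against 33.2% and 51.7% around the other TSSs. Among windows with a region the medians were 65.1% and 86.7%, beside 64.1% and 82.2%, so the groups differed mainly in how many windows were occupied at all.

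H2A.Z formed a pair of shoulders around the midpoint between the TSSs. Its coverage peaked 325 bp to either side of the midpoint, where 83.1% of the promoters on the minus-gene side and 81.6% on the plus-gene side lay in an H2A.Z region, and it dropped to 45.9% at the midpoint. Each side of the midpoint is downstream of 1 gene of the pair, so shoulders of near-equal height follow from the arrangement. Aligned by the TSS and transcription of each single gene, the peaks were 79.9% upstream and 83.3% downstream, beside 41.8% and 49.6% at the other TSSs. H2A.Zac bridged the center more often, with peaks of 88.7% and 88.5% and 79.5% at the midpoint. The span between the TSSs was touched by an H2A.Zac region at 731 promoters (88.7%) and covered from end to end at 614 (74.5%), whereas an H2A.Z region touched it at 508 (61.7%) and covered it at 338 (41.0%). Gained H2A.Zac coverage had a similar outline, with 34.6% of the promoters covered 375 bp on the minus-gene side, 35.7% covered 425 bp on the plus-gene side and 22.5% at the midpoint.

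**Figure D1:**
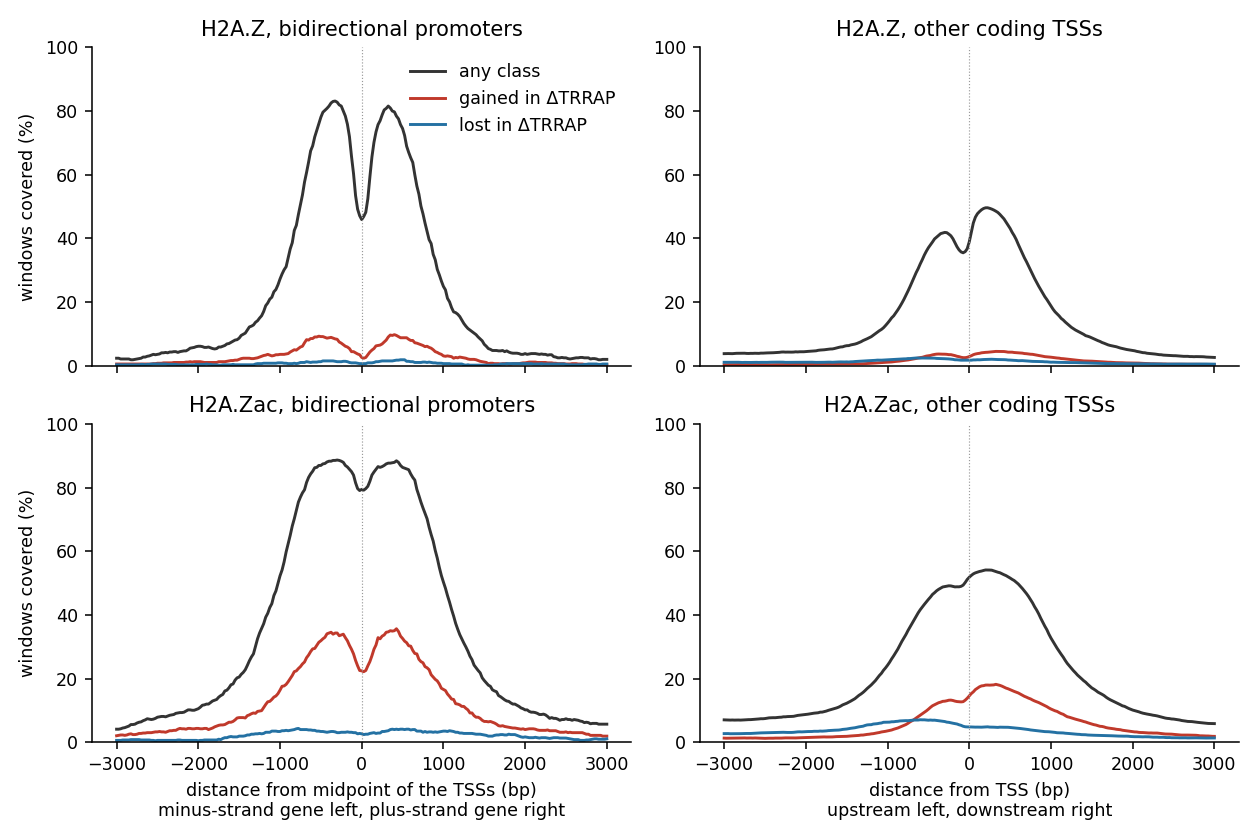
Share of windows (%) whose base at each distance lay in a listed region, for bidirectional promoters around the midpoint of their TSSs (left) and for other coding TSSs oriented by transcription (right), with H2A.Z above and H2A.Zac below. Black lines are regions of any class, red gained and blue lost; the 2 shoulders at bidirectional promoters are of near-equal height (83.1% and 81.6% for H2A.Z), and the gained line is above the lost line at both.

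How often a single region spanned both TSSs depended on their distance. For H2A.Zac this was so at 547 of 763 occupied promoters (71.7%), from 88.5% of those with TSSs at most 100 bp apart to 31.6% of those over 500 bp apart. For H2A.Z it was so at 331 of 751 (44.1%), with 67.1% at up to 100 bp and values between 21.1% and 32.9% in the 4 longer distance bins. Most of these spanning regions were unchanged between the lines, at 400 promoters for H2A.Zac and 314 for H2A.Z. They were gained at 114 and 10, lost at 16 and 4, and of several classes at 17 and 3. Over all regions at bidirectional promoters, 37.9% of H2A.Zac and 18.7% of H2A.Z regions were gained, and 5.73% and 2.56% lost.

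In the ΔTRRAP line, changed regions at bidirectional promoters were mostly gains. Of 1409 H2A.Z regions, 263 were gained, 36 lost and 1110 unchanged, so that 18.7% were gained and 2.56% lost. Over all listed H2A.Z regions 34% were changed, 14.1% gained and 19.8% lost. Of 1973 H2A.Zac regions, 748 were gained, 113 lost and 1112 unchanged, or 37.9% gained and 5.73% lost, beside 52.1% changed, 26.3% gained and 25.9% lost over all listed H2A.Zac regions. The gained share of changed regions was 88.0% for H2A.Z (interval 83.8 to 91.2%, 86.6 to 89.7% over the omissions of 1 chromosome) and 86.9% for H2A.Zac (84.5 to 89.0%, 86.3 to 87.7%).

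The other coding TSSs also had more gains than losses, but less one-sidedly. Of their H2A.Z regions 14.7% were gained and 8.46% lost, and of their H2A.Zac regions 29.2% and 15.1%, so that the shares differed more in losses than in gains. Their gained share was 63.5% for H2A.Z (62.0 to 65.1%) and 66.0% for H2A.Zac (65.0 to 66.9%), so that bidirectional promoters were 24.4 and 20.9 percentage points higher, with no overlap of the intervals. TSSs with a divergent lncRNA were again in between, at 80.7% (76.7 to 84.2%) and 79.9% (77.5 to 82.2%), where the H2A.Z interval overlapped that of the bidirectional promoters and the H2A.Zac interval did not. The TSSs with neither partner had 61.3% and 64.2%. Regions more than 1 kb from any coding TSS had 36.2% and 45.6%. How many regions changed at all was alike at bidirectional and other TSSs, 21.2% (19.2 to 23.4%) against 23.2% for H2A.Z and 43.6% (41.5 to 45.8%) against 44.3% for H2A.Zac, and the groups differed in direction. Expression of the genes was not analysed here, and the part of transcription level in this difference was not tested.

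Counted per promoter, H2A.Z was gained without any loss at 206 of 824 (25%) and lost without any gain at 32 (3.88%), 1 had both, 512 were unchanged and 73 had no region. Other coding TSS windows were gained in 11.5%, lost in 6.52% and both in 0.387%. H2A.Zac was gained at 511 (62.0%), lost at 70 (8.50%), both gained and lost at 30, unchanged at 152 and absent from the lists at 61, where the other windows had 27.5% gained, 13% lost and 4.36% both. Among windows with a region, at least 1 changed region was found at 31.8% for H2A.Z and 80.1% for H2A.Zac, beside 32.2% and 75.5% at the other TSSs. Of the 763 windows with an H2A.Zac region 511 were gained and 70 lost, beside 5034 and 2385 of 10888 at the other TSSs. The shares over all windows therefore also reflect how many windows hold a region. The bidirectional windows are longer by the distance between the TSSs. With the same window of 1000 bp to either side of each single TSS in both groups, 91.2% of the 1710 bidirectional TSSs had an H2A.Z region and 92.6% an H2A.Zac region.

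**Figure D2:**
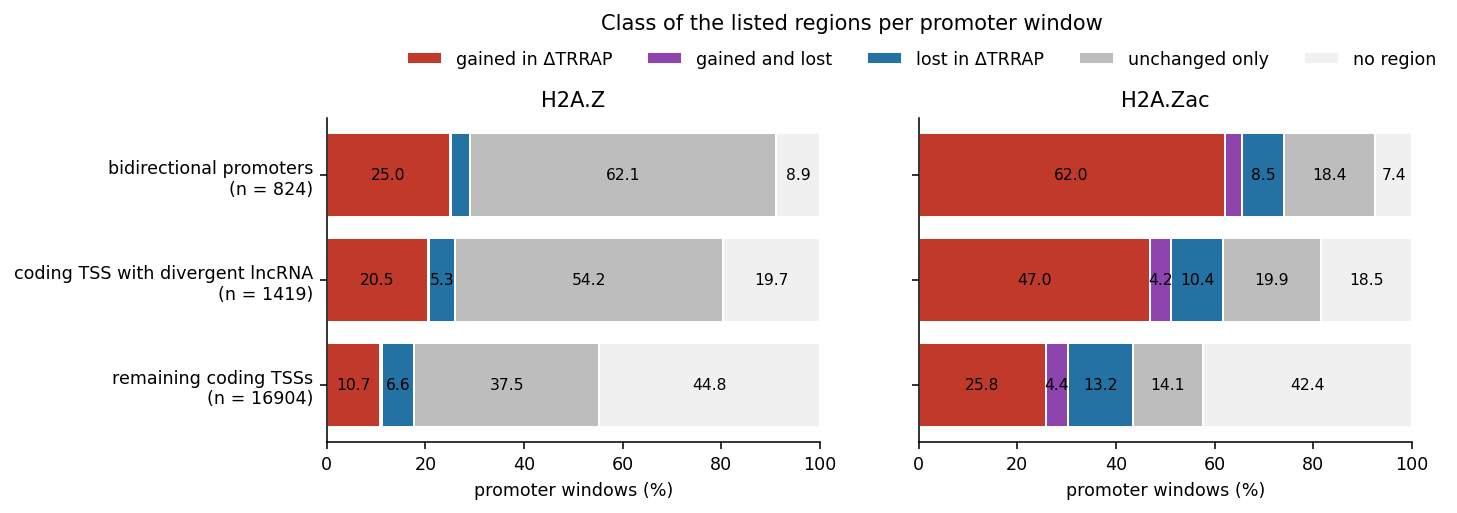
Percentage of promoter windows in each class, for H2A.Z (left) and H2A.Zac (right), at 824 bidirectional promoters, 1419 coding TSSs with a divergent lncRNA and 16904 remaining coding TSSs. Red windows held gained but no lost regions, blue the reverse, purple both, dark gray unchanged regions only and light gray none; H2A.Zac was gained at 62.0%, 47.0% and 25.8% of the 3 groups.

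The likelihood ratios of changed regions were modest for most promoters. The median was 5.01 in gained and 6.21 in lost H2A.Z regions, and 5.79 and 6.99 for H2A.Zac. The other coding TSSs had 4.98 and 5.47 for H2A.Z, and 6.07 and 7.37 for H2A.Zac. A gained H2A.Zac region with a ratio of at least 10 was found at 74 of 541 promoters with a gain, and a lost one at 30 of 100 promoters with a loss. Counted by region, 110 changed H2A.Zac regions reached 10 here, 80 of them gained, out of 748 gained and 113 lost regions. At the other coding TSSs 1802 reached 10, 829 of them gained, out of 6444 gained and 3323 lost regions. In both groups a larger share of lost than of gained regions thus reached 10. Changed regions of both directions were narrower than unchanged ones, as at the other coding TSSs. Gained regions had a median width of 384 bp in H2A.Z beside 784.5 bp in unchanged regions, and of 591.5 bp in H2A.Zac beside 857.5 bp. Lost regions had 490 and 631 bp. At the other TSSs, gained, lost and unchanged regions had 409.5, 486 and 871 bp in H2A.Z, and 614, 629 and 881 bp in H2A.Zac. Of the 748 gained H2A.Zac regions, 692 (92.5%) lay within 150 bp of an unchanged H2A.Zac region and 587 (78.5%) overlapped one at the edge, and the same held for 212 (80.6%) and 177 (67.3%) of the 263 gained H2A.Z regions. Of the lost regions, 75% in H2A.Z and 85.0% in H2A.Zac lay as close to an unchanged one. At the other TSSs these shares were 89.2% of gained and 77.2% of lost H2A.Zac regions and 80.2% of gained and 73.1% of lost H2A.Z regions. Gained H2A.Zac regions were centered a median of 475 bp from the midpoint and lost ones 728 bp, an order also found at the other TSSs (413.5 and 621 bp). For H2A.Z the medians were 517.5 bp in gained and 495.25 bp in the 36 lost regions, whereas the other TSSs had 451.5 and 560.75 bp.

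The marks seldom moved in opposite directions. At 196 promoters both marks changed in 1 direction each, and the directions were the same at 192 of them, beside 2319 of 2454 at the other coding TSSs. Gains made up 86.6% of the one-way changed promoters for H2A.Z and 88.0% for H2A.Zac, beside 63.8% and 67.9% at the other TSSs. Many directions would therefore be shared even if the marks changed independently. The other 4, PTGES3L/RUNDC1, DST/BEND6, DOCK4/ZNF277 and LACTB2/XKR9, had lost H2A.Zac and gained H2A.Z, and they are named here after their values were seen. In both directions H2A.Zac changed more often with H2A.Z unchanged than with a change in H2A.Z. The shares were near those of the other coding TSSs. Over all 824 promoters H2A.Z was unchanged at 62.1%, gained at 25% and lost at 3.88%, so the unchanged share at promoters with gained H2A.Zac was near that of all. Classes are per window, and an unchanged H2A.Z region need not lie under the changed H2A.Zac region. Of the 511 promoters with gained H2A.Zac, H2A.Z was unchanged at 324 (63.4%), gained at 166 (32.5%), without a region at 21 and lost at 0, where the other TSSs had 61.8% unchanged and 29.6% gained. Of the 70 with lost H2A.Zac, H2A.Z was unchanged at 37 (52.9%), lost at 26 (37.1%), gained at 4 and without a region at 3, beside 48.5% unchanged and 34.8% lost.

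The sides of the 2 genes were also classed separately. H2A.Zac regions lay on both sides of the midpoint at 748 promoters (90.8%), and changed on at least 1 side at 611. The change was found on both sides at 351, on the minus-gene side alone at 127 and on the plus-gene side alone at 133, so neither strand was favored. Where both sides changed in 1 direction each, 299 of 339 promoters gained on both, 27 lost on both and 13 changed in opposite directions. A region over the midpoint counts for both sides and gains outnumber losses, so a shared direction is in part fixed by the counting. At the other coding TSSs the change was found on both sides of 57.3% of the changed windows, beside 57.4% here, and of 4383 with both sides changed in 1 direction each, 2944 gained on both and 437 were opposed. For H2A.Z, 59 of 67 promoters gained on both sides, 7 lost on both and 1 was opposed, NOP10/NUTM1. Of 1135 such windows at the other coding TSSs, 719 gained H2A.Z on both sides, 365 lost it on both and 51 were opposed.

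The distance between the TSSs made little difference up to 500 bp. The gained share of changed H2A.Zac regions was 88.2% at up to 100 bp, 85.6% above that and up to 200 bp, 93.3% up to 300 bp and 85.2% up to 500 bp, and it was 77.2% (66.8 to 85.1%) from there to 1000 bp. For H2A.Z the values ran from 83.3% in the widest bin to 90.7% above 200 and up to 300 bp, with overlapping intervals. At the edge of the definition, the 17 promoters with TSSs in the last 100 bp below 1000 bp had 17 gained and 8 lost H2A.Zac regions and 5 gained and 2 lost H2A.Z regions. The 8 just outside it, up to 1100 bp apart, had 10 gained and 0 lost H2A.Zac regions and 3 gained and 0 lost H2A.Z regions.

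GC content differed little between bidirectional promoters and other TSSs, and it varied with the direction of change. The median GC content was 55.9% in bidirectional windows, 54.8% at other coding TSSs and 58.3% at TSSs with a divergent lncRNA. The median ratio of observed to expected CpG was 0.698, 0.597 and 0.729 in these groups, so CpG was less alike than GC content. Within bidirectional promoters the median GC content was 55.6% where H2A.Zac was gained and 58.3% where it was lost. The gained share was lowest in the quintile of highest GC in both groups, and it was higher at bidirectional promoters in each quintile. For H2A.Zac it was 93.1% in the quintile of lowest GC and 76.9% in the highest, beside 67.8% and 60.0% at other TSSs. For H2A.Z it was 100% (26 of 26 regions) and 72.7% (32 of 44), beside 70.8% and 54.2%. Occupancy differed most at low GC, where 82.8% of bidirectional promoters and 21.9% of other TSSs had an H2A.Z region, beside 94.9% and 71.7% in the highest quintile.

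**Figure D3:**
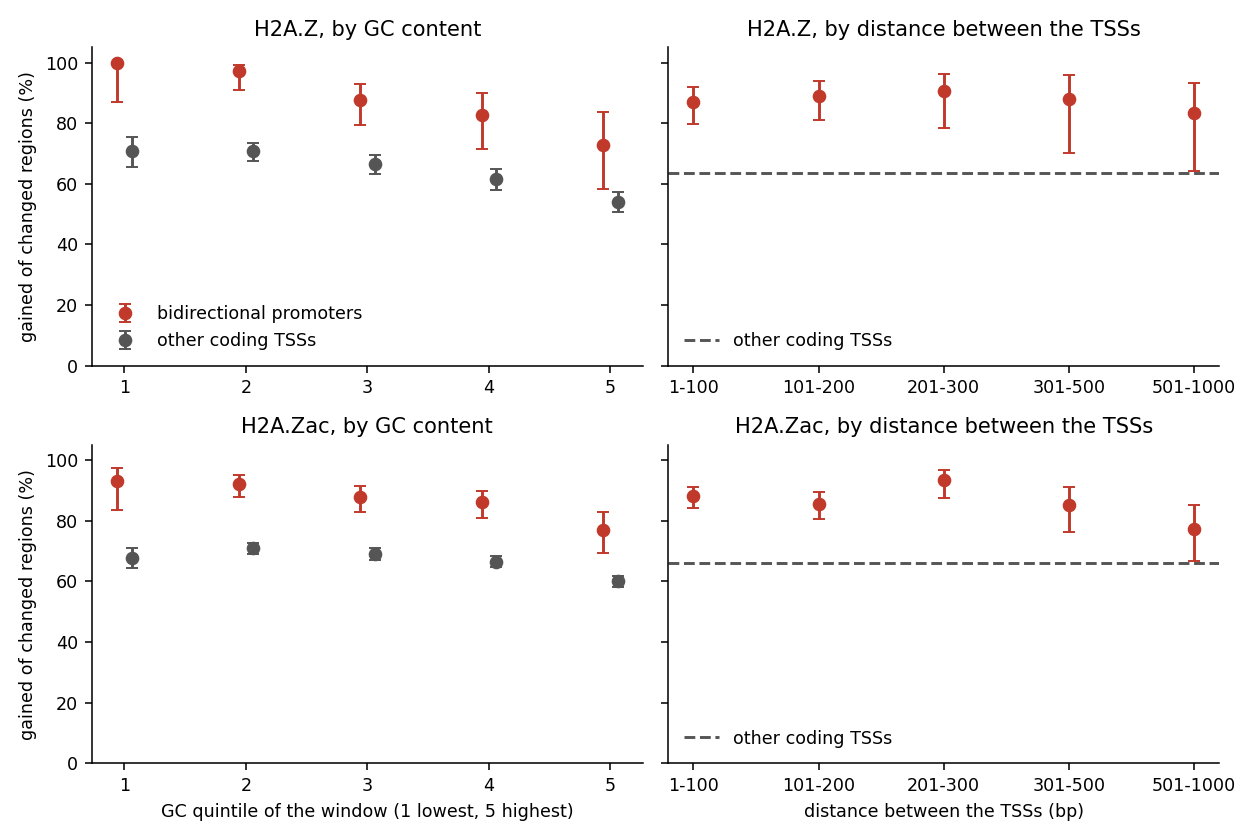
Gained share of changed regions (%), with Wilson 95% confidence intervals as bars, by quintile of GC content (left) and by distance between the TSSs in bp (right), for H2A.Z (above) and H2A.Zac (below). Bidirectional promoters are red and other coding TSSs gray, as points or a dashed line; the red points are above the gray in every quintile, from 93.1% to 76.9% for H2A.Zac.

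The higher gained share was not carried by a few chromosomes. It was above that of the other coding TSSs of the same chromosome on 23 of 23 chromosomes for H2A.Z and on 21 of 23 for H2A.Zac, the exceptions being chromosomes 5 and 18. Several chromosomes have few changed regions, and chromosome 18 had 2 H2A.Z and 2 H2A.Zac changes. Chromosome 20 stood apart, with 1 of 7 changed H2A.Z regions gained and 6 of 15 changed H2A.Zac regions, and its other coding TSSs were also mostly lost for both marks. On chromosome 19, 6 of 9 and 51 of 66 were gained.

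**Figure D4:**
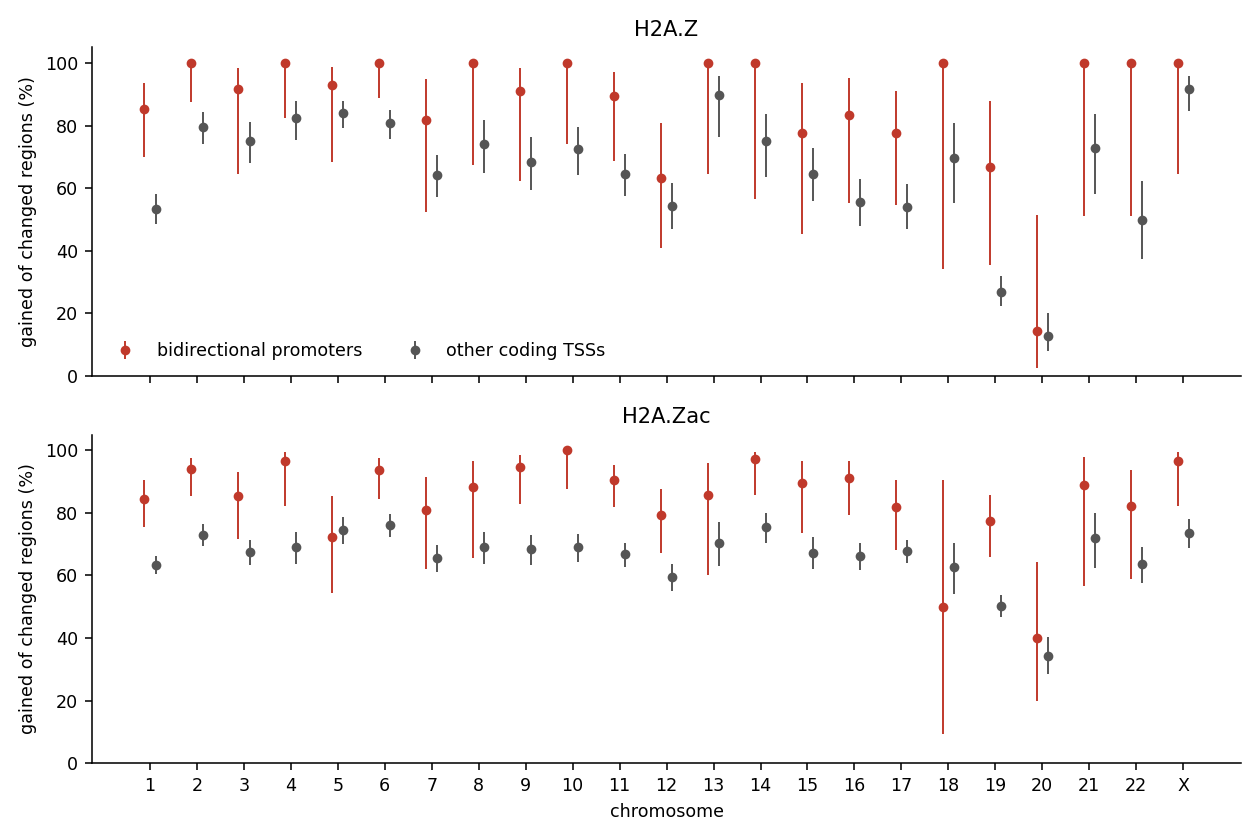
Gained share of changed regions (%) on each chromosome, with Wilson 95% confidence intervals as bars, for H2A.Z (above) and H2A.Zac (below), at bidirectional promoters (red) and other coding TSSs (gray). The red point is above the gray on 23 of 23 chromosomes for H2A.Z and 21 of 23 for H2A.Zac, and chromosome 20 has the lowest values of both groups.

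ZNF829/ZNF568, a pair of KRAB zinc finger genes on chromosome 19 with TSSs 25 bp apart, had the highest gained ratio of H2A.Zac, 67.9, in a region of 2055 bp that covers both starts (chr19:36915394-36917448). The H2A.Z gain there had a ratio of 17.5 and nearly the same borders. NUDCD2/HMMR, where HMMR encodes a hyaluronan receptor that also acts at the mitotic spindle, had ratios of 15.4 for H2A.Z and 23.6 for H2A.Zac, and its H2A.Zac gain was 6277 bp wide. The NRF1 letters printed above lie between its starts.

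CLIC1/MSH5-SAPCD1, where CLIC1 is a chloride intracellular channel protein, had 13.4 for H2A.Z and 10.8 for H2A.Zac, and its H2A.Z was gained in 3 separate regions. After ZNF829/ZNF568, the highest H2A.Zac gains were at RSPH14/RAB36 (34.2) and TBC1D16/CCDC40 (29.0). The former is a gene of the ciliary radial spoke beside a Rab GTPase, the latter a Rab GTPase-activating protein beside a gene of motile cilia. At RSPH14/RAB36 each mark was gained in 2 regions, 1 toward each gene, which left the middle of the span in no listed region.

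Among lost promoters, UIMC1/ZNF346 had the highest H2A.Z ratio, 29.4, in 1 region of 2713 bp (chr5:177020946-177023658), with an H2A.Zac loss of 15.6 over nearly the same stretch. UIMC1 encodes RAP80, the ubiquitin reader that brings BRCA1 to DNA breaks. ZDHHC19/SLC51A, a palmitoyltransferase gene beside a bile acid transporter subunit, had an H2A.Zac loss of 30.6 and an H2A.Z loss of 12.4, again over both starts. SOX18/TCEA2, where SOX18 is an endothelial transcription factor and TCEA2 an elongation factor, had 18.0 for H2A.Zac and 15.6 for H2A.Z and the most GC-rich window of the named pairs, 72.2%. RGS19/OPRL1, a regulator of G protein signaling beside the nociceptin receptor, lies close by on chromosome 20 and had 11.9 for H2A.Zac and 11.4 for H2A.Z, on the OPRL1 side alone. C1orf232/ZNF593 had an H2A.Zac loss of 12.7 and an H2A.Z loss of 11.5, both over the C1orf232 start. The highest H2A.Zac loss of all, 37.9, was at ALS2CL/TMIE, where TMIE is needed for hair cell mechanotransduction. The only H2A.Z region listed in that window was called unchanged, covers the ALS2CL start and does not overlap that loss.

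**Figure D5:**
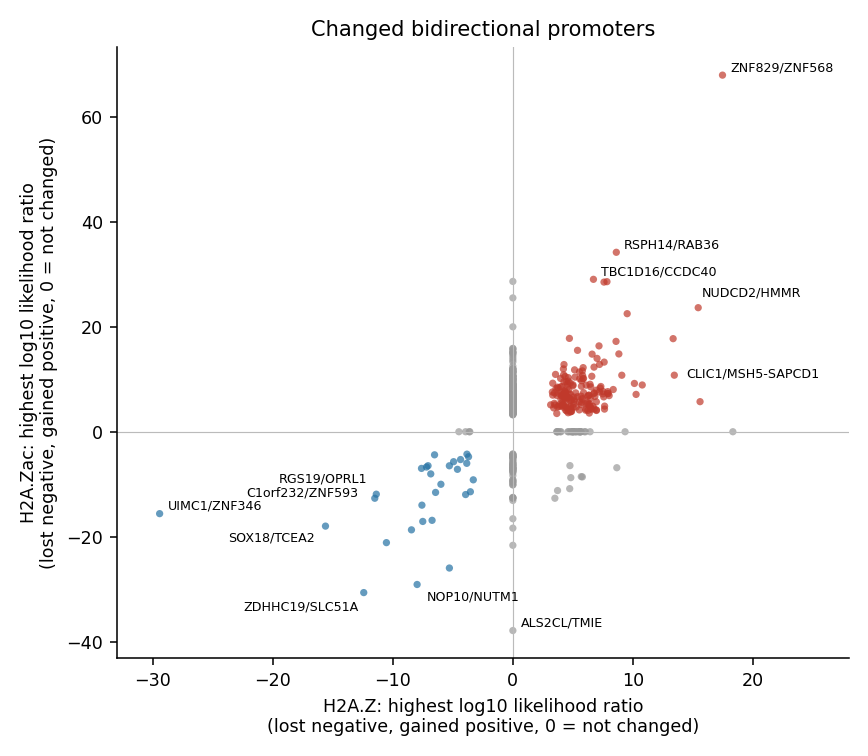
Highest log10 likelihood ratio of a changed H2A.Z region (x axis) and H2A.Zac region (y axis) at each bidirectional promoter with a changed region, with losses drawn as negative, gains as positive and no changed region as 0; where a promoter had both, the higher ratio is drawn. Red points gained both marks and blue points lost both; ZNF829/ZNF568 is the farthest gain (17.5 and 67.9) and UIMC1/ZNF346 the farthest H2A.Z loss (29.4).

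Some promoters held both gained and lost H2A.Zac regions. At NOP10/NUTM1, the side of NOP10, a subunit of H/ACA ribonucleoproteins, was gained (H2A.Z 6.58, H2A.Zac 7.63), while the side of NUTM1, a gene otherwise known from testis, was lost (7.97 and 29.1). ACLY/ODAD4 gained H2A.Zac over its starts (8.17), where ACLY makes cytosolic acetyl-CoA, and lost it within the ODAD4 side (12.6). The H2A.Z regions of its window were unchanged and did not overlap the lost H2A.Zac region. ATG2A/PPP2R5B had 3 gained H2A.Zac regions (up to 8.71) and 1 lost (8.61). RNF41/NABP2 had a gained H2A.Zac region over both starts (15.5) flanked by lost regions on either side (6.79 and 7.97).

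Replication-dependent histone genes, which are induced in S phase, formed 13 bidirectional promoters, nearly all an H2A gene opposite an H2B gene. H2A.Zac was gained at 10 of the 13, lost at 0, unchanged at 1 and not listed at 2, beside 62.0% gained and 8.50% lost over all bidirectional promoters. H2A.Z was not listed at 9, gained at 3 and unchanged at 1, beside 8.86% not listed and 25% gained over all. The highest H2A.Zac gains were 28.6 at H2BC8/H2AC8, 17.2 at H2AC7/H2BC7 and 15.1 at H2BC4/H2AC6, and the median ratio of gained regions was 13.3. Histone genes are near-identical copies, and the alignment options named in the paper's methods include no filter on mapping quality, so a read that fits several copies may have been assigned to any of them.

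DNA repair and replication genes had 26 promoters, of which H2A.Zac was gained at 16, lost at 1, both at 1, unchanged at 7 and not listed at 1, which is near the gained share of all bidirectional promoters, 62.0%. H2A.Z was gained at 9 and lost at 0, beside 25% and 3.88% over all. LIG1/ZSWIM9, where LIG1 is the ligase that joins Okazaki fragments, had 14.8 for H2A.Zac and 6.60 for H2A.Z. BRCA1/NBR1, where BRCA1 acts in homologous recombination, had 10.7 and 5.81. Both pairs were named after their values were seen, and the median ratio of changed H2A.Zac regions in this list was 6.19. NPAT/ATM, the pair of the histone gene coactivator and the DNA damage kinase, gained H2A.Zac near NPAT (6.32) and within the ATM side (5.55). PRKDC/MCM4, with starts 7 bp apart, gained both marks on the side of PRKDC, the catalytic subunit of DNA-PK (6.39 and 5.34). Losses were found at RAD51D/FNDC8, with 1 lost H2A.Zac region that only grazes the window (8.33), and TEX14/RAD51C, with an H2A.Zac loss of 10.8 and a gain of 3.77.

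Among genes of protein synthesis and of mitochondria, the mitochondrial ribosome and complex I were near the gained share of all bidirectional promoters, and tRNA synthetases had no gain. The cytosolic ribosome had 11 promoters, 9 gained for H2A.Zac, 0 lost, 1 both and 1 without a region. The mitochondrial ribosome had 16, with 10 gained, 1 lost and 1 both, and respiratory complex I had 15, with 10 gained and 1 lost. Of 6 proteasome promoters 5 were gained and 0 lost. VPS52/RPS18, where RPS18 is a protein of the small ribosomal subunit, gained H2A.Z (6.44) and H2A.Zac (4.93) on the RPS18 side. SARS2/MRPS12 joins the mitochondrial seryl-tRNA synthetase with a mitochondrial ribosomal protein, counts in both lists, and had an H2A.Zac loss of 9.76 on the SARS2 side. The 3 promoters of tRNA synthetases had 0 gained, 1 lost and 2 unchanged. Zinc finger genes had 29, with 18 gained and 4 lost. Over all bidirectional promoters 62.0% were gained and 8.50% lost, and none of these lists was compared with that background by a test.

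Of the textbook pairs, PPAT/PAICS, both of purine synthesis, gained H2A.Zac (7.16) and H2A.Z (4.79). COL4A6/COL4A5, a pair of collagen IV genes, had gained regions of both marks (H2A.Z 4.32, H2A.Zac 7.82), whereas the homologous pair COL4A4/COL4A3 had no region of either mark. Of the 17 textbook pairs looked up, 8 were bidirectional by the annotated gene starts used here and 9 were not, HSPD1/HSPE1 among the latter.

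The sequence around the starts was compared with that of all coding genes and of coding genes with a divergent lncRNA. In the window from 250 bp before to 50 bp after each TSS, on either strand, CCGGAAG occurred at 27.3% of the 1710 genes, beside 11.9% of all 20033 coding TSSs, the NRF1 motif at 4.04% beside 1.48%, ATGGCGGC at 6.61% beside 3.17% and GGGCGG at 72.0% beside 52.4%. CCAAT occurred at 40.9% beside 35.9% and CACGTG at 10.3% beside 8.36%, while TATAAA was rarer, 5.09% beside 10.8%. The 1419 TSSs with a divergent lncRNA were like the bidirectional genes in GGGCGG (73.3%) and TATAAA (4.58%), and they had lower shares of CCGGAAG (19%), the NRF1 motif (1.97%) and ATGGCGGC (4.65%). The windows of paired genes overlap, so 1 match can count for both. Counted once per promoter, CCGGAAG was found at 176 of 511 promoters with gained H2A.Zac (34.4%, 30.5 to 38.7%) and at 15 of 70 with lost H2A.Zac (21.4%, 13.4 to 32.4%), and CACGTG at 59 (11.5%, 9.06 to 14.6%) and 17 (24.3%, 15.8 to 35.5%). The CCGGAAG intervals overlap, and over all 824 promoters the shares were 30.8% for CCGGAAG and 13.2% for CACGTG, near those of the gained promoters. The NRF1 motif was found at 26 gained and 0 lost promoters, and the interval of 0 of 70 reaches 5.20%, beside 4.49% of all promoters. These are matches of letters and say nothing about factor binding.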

How the data were processed

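ChIP-seq reads of H2A.Z, H2A.Zac and input in K562 cells were aligned by the authors to hg38 with Bowtie2 2.4.5, peaks were called with MACS2 2.2.7.1, and merged replicates of the WT and ΔTRRAP lines were compared with bdgdiff (minimum length 250 bp, gap 150 bp), scaled to effective depth. They kept regions lying by 25% or more in peaks that passed an IDR cutoff of 0.05. The deposited score is the authors' log10 likelihood ratio per region, in 6 lists (2 marks, 3 classes). Versions follow the paper and the submitters' processing notes. The lists hold no counts per replicate, so they do not give the depth of each library. No test was run here, and precision is limited to counting intervals.

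Here, TSSs were taken from GENCODE release 44 (the paper used 32), and a region belonged to a window when they overlapped by 1 bp. The rule for named promoters took the highest likelihood ratios in both marks and in H2A.Zac for each direction, the highest opposed pairs, and textbook pairs. A few items that this rule names are not reported here. Members and lists were chosen with earlier results of these data known. Python 3.11.15, pandas 2.3.3, scipy 1.17.1, pysam 0.24.0 and bedtools 2.31.1 were used. Overlaps were checked against bedtools (0 of 3382 differed), and in simulated data 28 of 28 divergent pairs were found. The alternatives were other windows, distances, overlaps, ratio cutoffs, transcript starts and chromosomes. Inputs, signal tracks and expression were not analysed here.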

Additional observations from a re-analysis of the deposited data

How the results depend on the processing

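The gained share of changed regions was above 50% and above that of other coding TSSs under all alternatives tried, and leaving out any chromosome moved it only within 86.6 to 89.7% for H2A.Z and 86.3 to 87.7% for H2A.Zac. With changed regions restricted to a ratio of at least 10, it was 66.7% for H2A.Z (12 of 18, beside 51.6% at other TSSs, where the interval of the difference included 0) and 72.7% for H2A.Zac (80 of 110, beside 46%). The changed shares were then 1.60% and 9.0%, 90.4% of promoters had an H2A.Zac region, and 74 promoters were gained and 30 lost in H2A.Zac. At a ratio of at least 5, 12.3% of H2A.Z and 34.8% of H2A.Zac regions were changed, and counted in base pairs 12.0% and 36.3%. A flank of 500 bp gave 18.0% changed for H2A.Z and a gained share of 89.8% for H2A.Zac. With the TSS of the canonical transcript, 94.0% of promoters had an H2A.Z and 95.4% an H2A.Zac region, and the gained shares were 92.6% and 90.8%. Windows around single TSSs were added after seeing the data. No paired analysis was possible because the lists hold no values per replicate, for which reason no replicate could be left out. Depth limits every call in a way that cannot be given here.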

Other observations

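Of the 32 promoters at which H2A.Z was lost without a gain, 12 lay in 2 stretches, which were chosen after the values were seen, so their counts are a description. Between 110 and 130 Mb of chromosome 12 lay 11 bidirectional promoters, of which 7 lost H2A.Z, 8 lost H2A.Zac and 0 gained either mark. They include TRIAP1/GATC, where GATC serves mitochondrial glutaminyl-tRNA synthesis (H2A.Z ratio 3.69, H2A.Zac 4.76), VSIG10/PEBP1, where PEBP1 is an inhibitor of RAF kinase (5.99 and 10), and RHOF/SETD1B, where SETD1B is a histone H3 lysine methyltransferase (3.82 and 4.27). Beyond 40 Mb of chromosome 20 lay 13, of which 5 lost H2A.Z, 7 lost H2A.Zac and 0 gained either. These 24 promoters also held 15 of the 70 with lost H2A.Zac. Copy number of these stretches in the 2 clones was not tested.

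Outside these stretches, lost promoters included MEX3A/LMNA, where LMNA encodes the nuclear lamins A and C (H2A.Z ratio 10.5, H2A.Zac 21.1), HES4/ISG15, where ISG15 is an interferon-induced ubiquitin-like protein (7.50 and 17.1), HRAS/LRRC56, where HRAS is a RAS GTPase (6.84 and 8.03), GPC2/STAG3, where STAG3 is a cohesin subunit of meiosis (8.44 and 18.7), and ATXN7L1/CDHR3 (5.29 and 26.0). They were chosen from the lost promoters after their values were seen.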
